A study of Oryza sativa Japonica Group with 9 samples.

Results

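Of the 1551 JMJ705 peaks called in rice shoot apices that over-express the protein in a wild-type background, 436 (28.1%) overlapped by at least 1 bp a peak called in apices that over-express it in a wox11 mutant background. The overlapped peaks of the wox11 background numbered 438 of 1309 (33.5%). These shared peaks are described here by their position, their width, their tags (the sequenced reads counted in a peak), the named loci within 1 kb of them and the transcript levels of those loci. They were chosen by the overlap of the peak calls alone. Values of the peaks themselves are therefore a description with no test, and only the transcript levels, which the choice did not use, were tested.

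All samples were 2 to 3 mm shoot apices cut from 5-day-old rice seedlings of the japonica group, and Hwayoung is the cultivar named for the RNA samples. Chromatin was precipitated with an anti-FLAG antibody from 1 sample that over-expresses JMJ705 in the wox11 mutant background and from 1 that over-expresses it in the wild-type background (oxJ5 in the labels). Messenger RNA was sequenced in wox11 mutants, in jmj705 mutants and in wild type, and the design text of the series describes the 2 libraries of each genotype as biological repeats. The sources used here name neither the promoter of the JMJ705 transgene nor the number of plant lines nor the kind of mutant allele. Both ChIP samples carried the over-expressed JMJ705 and none of the RNA samples did, so each peak set and each transcript level come from different plants. No anti-FLAG library from plants without the tagged protein was analysed here, and with 1 library per background a difference between backgrounds has no replicate check.

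JMJ705 is a jumonji-type demethylase. Its substrate is trimethylated lysine 27 on histone H3 (H3K27me3), a mark laid down by Polycomb complexes over genes that are kept silent. WOX11, a WUSCHEL-related homeobox protein, regulates transcription and is known in rice above all for crown root formation. The series' title states that WOX11 recruits such a demethylase in shoot development. Shared peaks are the places where an anti-FLAG peak was called both in the wild-type background and in the wox11 mutant background. How much WOX11 function the mutant keeps is not stated in the sources used here.

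The paired peaks mostly covered the same stretch of chromatin. The 436 and 438 peaks formed 440 overlapping pairs, of which 428 were one to one. Over these the median overlap was 913.5 bp, and the shorter peak lay a median of 100% inside its partner. The summits, the positions of highest tag pile-up, lay a median of 40 bp apart, with 309 of the 428 pairs (72.2%) within 100 bp and 399 (93.2%) within 500 bp. A few members barely met the rule. The smallest overlaps were 6, 9, 38 and 39 bp, and the nearest peaks left outside it missed their neighbour by 15, 33, 57 and 58 bp. A further count bears on the edge of the rule, since 32 peaks of the wild-type background without an overlap had a peak of the wox11 background within 1 kb.

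Shared peaks were the stronger part of each list by median tags and width, but not by the false discovery rate. Their median tag count was 56 in the wox11 background, against 44 for peaks of that list without an overlap. In the wild-type background the medians were 62 tags for shared peaks and 33 tags for the others. Fold enrichment over the control, the peak caller's own value, had a median of 6.73 for shared peaks and 6.54 for the others in the wox11 background, so the distinction in fold was small there. In the wild-type background it was 9.75 for shared peaks and 6.21 for the others. Median widths were 998 bp for shared peaks and 914 bp for the others in the wox11 background, and 1115.5 bp and 908 bp in the wild-type background. The peak caller's median false discovery rate was slightly higher for shared peaks. It was 6.315% against 6.04% in the wox11 background and 1.76% against 1.64% in the wild-type background.

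The share of peaks with a partner climbed with the score, which is the peak caller's p-value on a logarithmic scale. When each list was divided into 4 bins of equal size by score, 19.5%, 22.0%, 35.5% and 56.9% of the peaks were shared in the wox11 background, from the lowest bin to the highest. In the wild-type background the shares were 8.25%, 15.2%, 24.5% and 64.4%. Bins by fold enrichment gave 34.5%, 31.2%, 27.8% and 40.4% in the wox11 background, which do not climb throughout, and 12.4%, 10.1%, 25.8% and 64.2% in the wild-type background. The highest score bin of the wild-type list alone supplied 250 of the 436 shared peaks.

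**Figure D1:**
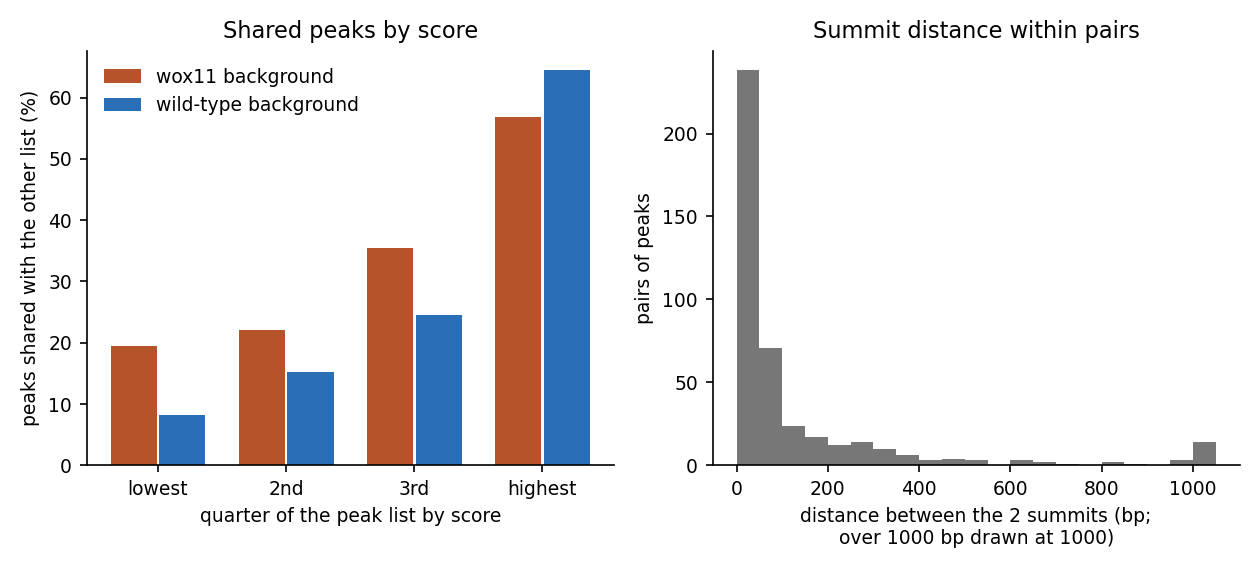
Left, the percentage of peaks shared with the other list by score bin (4 of equal size) in the wox11 background and in the wild-type background, with the highest bins at 56.9% and 64.4%. Right, the number of one-to-one pairs by distance between the summits in bp, where 309 of 428 pairs lie within 100 bp.

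Within pairs, most peaks held fewer tags in the wox11 background once library size was taken into account. Tags were scaled to RPM, the usual unit for reads relative to library size, by the tags left after filtering in each library, 6811451 in the wox11 background and 4488720 in the wild-type background. The median over the 428 pairs was 8.15 RPM in the wox11 background and 13.6 RPM in the wild-type background, and the median ratio was 0.636 (quartiles 0.485 and 0.883). It was below 1 in 356 pairs and above 1 in 72. An exact 95% interval of the ratio, which covers counting error only, lay below 1 in 249 pairs, above 1 in 21 and held 1 in 158. Tags were counted over each peak's own width, which the interval does not cover, and with 1 library per background it is no test. Fold enrichment gave a like median ratio of 0.667, and RPM divided by peak width one of 0.705.

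The same order held for the lists as a whole. All peaks together held 1.41% of the filtered tags in the wox11 background and 2.14% in the wild-type background. Shared peaks held 0.659% over 530 kb in the wox11 background and 0.932% over 570 kb in the wild-type background. The lists also had different controls, of 11816531 filtered tags for the wox11 background and 15531116 for the wild-type background. Their part in the difference was not tested, and the background, the library and its control cannot be told apart with 1 library each. Across the 428 pairs the order of the peaks was partly kept, with Spearman's rho of 0.656 for RPM, 0.579 for fold enrichment and 0.634 for width.

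**Figure D2:**
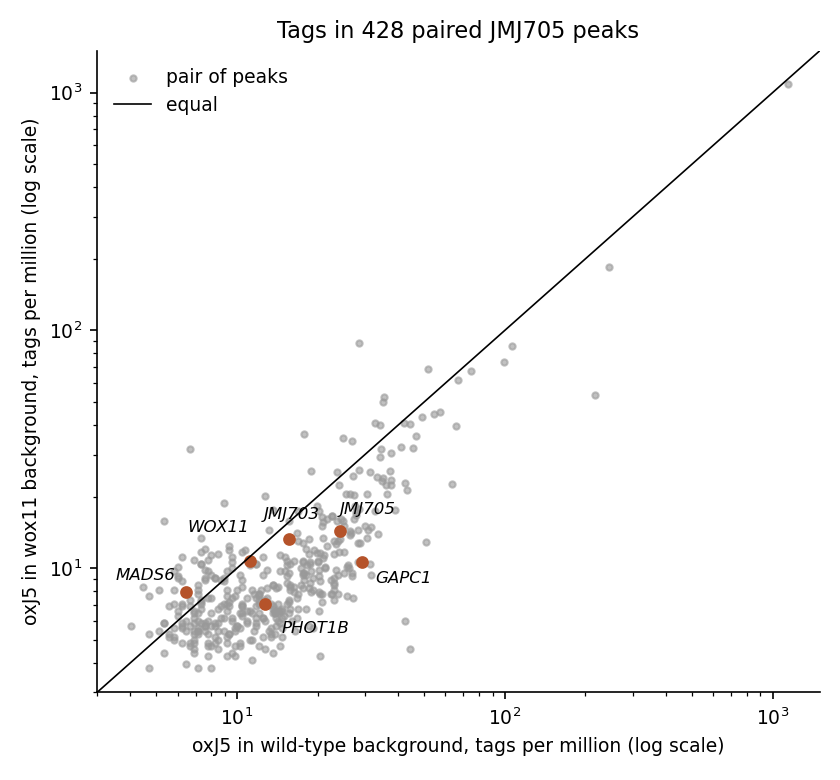
Each point is 1 of 428 one-to-one pairs of shared peaks, with tags scaled to library size (RPM) in the wild-type background on the horizontal axis and in the wox11 background on the vertical axis, both on log scales, and the line marks equality. Most points, 356 of 428, lie below the line; peaks at 6 named genes are marked.

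A small number of pairs went far to either side. The highest ratio was 4.72 (95% interval 3.21 to 7.17), at chr8:22978220-22980213, with 215 tags and a fold enrichment of 34.48 in the wox11 background against 30 tags and 9.15 in the wild-type background. No named locus lay within 1 kb of it. Next came chr10:8251670-8259641 at LOC_Os10g16560, with 603 tags in the wox11 background, 128 tags in the wild-type background and a ratio of 3.10 (2.56 to 3.79), where the peak of the wox11 background was 7972 bp wide and that of the wild-type background 2762 bp. At LOC_Os10g37830 the ratio was 2.11 (1.47 to 3.09), with 128 tags at a fold enrichment of 30.07 in the wox11 background and 40 tags at 13.77 in the wild-type background. The lowest ratio, 0.103 (0.0683 to 0.151), belonged to chr11:12315635-12316314, with 31 tags over 680 bp in the wox11 background and 198 tags over 2408 bp in the wild-type background. In each of these pairs the peak with more tags was also the wider one.

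Shared peaks lay on all 12 chromosomes. Chromosome 5 had the most, 56, and also the highest density, 1.87 per Mb of the stretch spanned by loci. Chromosome 2 followed in number with 46. Chromosome 11 followed in density with 1.48 per Mb, or 43 shared peaks, and chromosome 3 was the sparsest at 0.851 per Mb. Of the 380 bins of 1 Mb, 240 held a shared peak and 127 of those held just 1.

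The densest stretch was chr11:12039460-12353384, where 16 shared peaks stood within 313925 bp. Peaks without an overlap were also frequent there. The 1 Mb bin around it held 39 peaks of the wild-type background, 18 of them shared, and 29 peaks of the wox11 background. The 16 shared peaks of the stretch were wide and rich in tags but low in median fold enrichment. Their 17 partner peaks of the wox11 background had medians of 199 tags and a fold enrichment of 4.95. In the wild-type background the medians were 179 tags and 5.09. Over all shared peaks the median folds were 6.73 and 9.75. The stretch holds 4 named loci, and 1 of them had a wild-type mean of at least 1 FPKM (a transcript level corrected for length and library size). That locus is LOC_Os11g20790, an adenylate kinase gene (ADK-B), which lies at the edge of the stretch beside its first peak. It had 229.9 and 243.9 FPKM in wox11, 242.4 and 208.1 FPKM in the libraries labelled jmj705, and 230.4 and 297.1 FPKM in wild type, so the genotypes overlapped.

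Very high tag counts went with low fold enrichment. The 12 shared peaks with the most tags held 30.3% of all tags in shared peaks in the wox11 background and 25.4% in the wild-type background. Yet their fold enrichment was under the median of shared peaks in 11 of 12 in the wox11 background and in 12 of 12 in the wild-type background. The 12 were counted from the wild-type background. Both wox11 values count the peak chr11:12039553-12043381, with 518 tags, 2 times, since it overlapped 2 peaks of the wild-type background. The largest, chr2:28714952-28722441, held 7401 tags at a fold of 1.80 in the wox11 background and 5125 tags at a fold of 2.83 in the wild-type background. No named locus lay within 1 kb of it, but unnamed transcribed loci did. The most abundant of those, chr2:28716283-28717007, had 24.2 and 68.3 FPKM in wox11, 58.4 and 70.4 FPKM in the libraries labelled jmj705, and 59.6 and 122 FPKM in wild type. The wox11 libraries differed widely from each other there, as did the wild-type ones, and the genotypes overlapped.

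Another of these tag-rich peaks was at the very start of chromosome 4, chr4:883-2191, with 1253 tags in the wox11 background and 1097 tags in the wild-type background. Chromosomes 2, 5, 8 and 10 also had a shared peak in their first 5 kb, making 5 in all. The locus beside the one on chromosome 4, LOC_Os04g01006, was listed at 0 FPKM in all 6 RNA libraries.

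The peaks with the highest fold enrichment were not those with the most tags. The highest, chr4:16367421-16368350, reached a fold of 44.1 with 160 tags in the wox11 background and 67.5 with 169 tags in the wild-type background, and both summits fell on the same base. It had no named locus within 1 kb. The second highest in the wild-type background, at LOC_Os03g11480, reached 25.1 with 110 tags in the wox11 background and 48.8 with 123 tags in the wild-type background. The peak caller's false discovery rate was above the shared median for both peaks. For the highest it was 100% in the wox11 background and 50% in the wild-type background. At LOC_Os03g11480 it was 22.22% and 9.09%, and the medians over shared peaks were 6.315% and 1.76%.

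In both lists a smaller share of the shared peaks than of the other peaks had a named locus overlapping or within 1 kb. A named locus overlapped 61.9% of them in each background, against 63.4% of the other peaks in the wox11 background and 65.9% in the wild-type background. Within 1 kb there was a named locus for 71.5% of shared peaks and 78.3% of the others in the wox11 background, and for 72.2% and 78.8% in the wild-type background. Summits over 5 kb from any named locus made up 10.3% of shared peaks and 5.74% of the others in the wox11 background, and 9.63% and 7.17% in the wild-type background. An unnamed locus lay within 1 kb of 7.53% of shared peaks and 3.10% of the others in the wox11 background, and of 7.80% and 5.02% in the wild-type background. For summits inside a named locus the lists differed, with 46.6% of shared peaks and 46.2% of the others in the wox11 background. In the wild-type background the shares were 45.9% and 52.2%. Summits within 500 bp of a locus end had the same order in each list. Without the chromosome 11 stretch and the chromosome starts, 313 shared peaks of the wild-type background had a named locus within 1 kb, against 315 with them. These are counts of peaks from 1 library per background and were not tested.

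**Figure D3:**
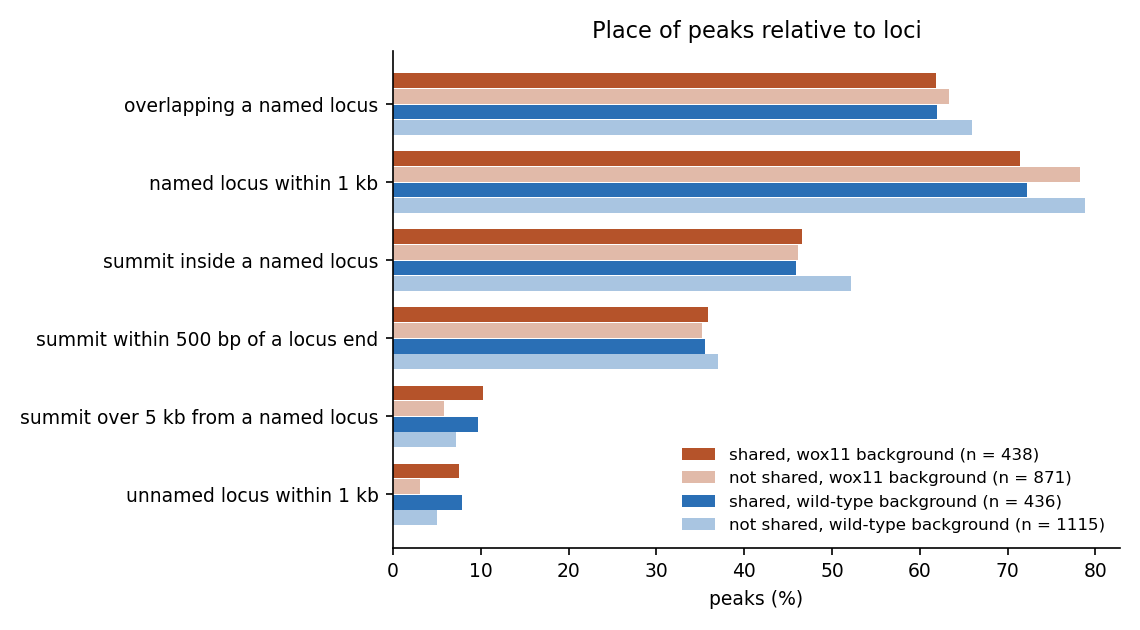
The percentage of peaks in each relation to loci, with bars from top to bottom for shared and other peaks of the wox11 background and shared and other peaks of the wild-type background. Shared peaks have a named locus within 1 kb in 71.5% and 72.2% of cases, the other peaks in 78.3% and 78.8%.

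Counted from the wild-type background, 315 of the 436 shared peaks had a named locus within 1 kb, and 121 had none. They led to 658 named loci. That number rests partly on 8 peaks inside merged blocks, stretches of 53.0 to 299 kb in which the expression tables give up to 47 loci the same coordinates, so that the peak cannot be tied to 1 gene. Those blocks gave 235 of the 658 loci. A set of 318 loci with coordinates of their own, defined after the blocks had been seen, is given beside the whole set where both are at hand. Peaks that overlapped a locus outside blocks had a median of 54 tags in the wox11 background and 59 tags in the wild-type background, and peaks with no locus within 1 kb had 61 and 71 tags. The median ratio between backgrounds was 0.617 for the 259 pairs that overlapped a locus and 0.683 for the 116 pairs without one.

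Most loci near shared peaks had little or no transcript in the apex. Among the 657 with an estimate in every library, 238 (36.2%) were listed at 0 FPKM in all 6 libraries, against 41.0% of all 55706 named loci. Wild-type means of at least 1 FPKM were reached by 229 loci (34.9%) near shared peaks and by 37.0% of all named loci. At least 10 FPKM was reached by 104 (15.8%) near shared peaks and by 20.6% of all named loci. The class of low but detected transcripts, above 0 in some library but below 1 FPKM in wild type, was larger near shared peaks at 28.9%, against 22.0% of all named loci. Near the peaks without an overlap this class was 17.6% in the wox11 background and 26.3% in the wild-type background. Transcript levels of the 317 loci with coordinates of their own fell into nearly the same classes, with 36.3% listed at 0 and 35.02% at or above 1 FPKM in wild type.

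**Figure D4:**
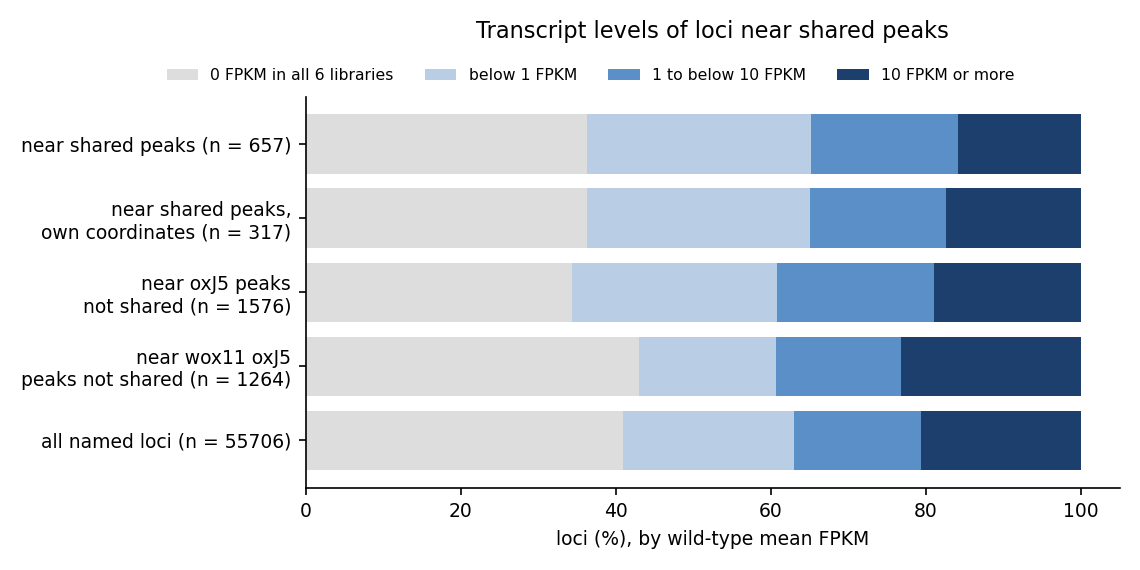
The percentage of named loci in 4 classes of wild-type mean FPKM, from 0 in all 6 libraries to 10 FPKM or more, for loci near shared peaks, for those of them with coordinates of their own, for loci near the other peaks of each list and for all named loci. Loci near shared peaks have 28.9% in the class below 1 FPKM and 15.8% in the class of 10 FPKM or more, against 22.0% and 20.6% of all named loci.

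The distribution was alike in the 3 genotypes. At or above 1 FPKM were 35.9% and 35.01% of the loci near shared peaks in the wox11 libraries, 35.8% and 35.3% in the libraries labelled jmj705, and 35.6% and 33.8% in wild type. The genotypes thus overlapped. No locus near a shared peak was below 1 FPKM in both wild-type libraries and at or above it in both wox11 libraries, while 239 of all named loci (0.429%) were. For the libraries labelled jmj705 there were 4 such loci (0.609%), against 269 of all named loci (0.483%). The opposite pattern, at or above 1 FPKM in both wild-type libraries and below it in both mutant libraries, was seen at 3 loci (0.457%) for wox11, against 0.205% of all named loci, and at 1 locus (0.152%) for jmj705, against 0.224%.

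Tag counts and widths of the peaks in the wild-type background differed with the transcript level nearby. Where the highest wild-type level within 1 kb was at least 10 FPKM, 65 shared peaks had a median of 53 tags in the wox11 background and 39 in the wild-type background. Where it was below 1 FPKM, 168 peaks had 59 tags in the wox11 background and 69.5 in the wild-type background. Median fold enrichment was 8.38 at loci of at least 10 FPKM and 6.14 at those below 1 FPKM in the wox11 background, and 8.96 and 9.84 in the wild-type background, so its order was not the same in both. The wider peaks were at the loci below 1 FPKM, with median widths of 1069 bp in the wox11 background and 1251.5 bp in the wild-type background, against 922 and 941 bp at loci of at least 10 FPKM. The median ratio between backgrounds was 0.783 for the 65 peaks at the more abundant loci and 0.597 for the 168 at those below 1 FPKM.

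Markers of the shoot apex were present in the RNA libraries. The meristem homeobox gene OSH1 had 42.7 and 45.9 FPKM in wox11, 48.8 and 69.2 FPKM in the libraries labelled jmj705, and 53.1 and 66.3 FPKM in wild type. OSH71 had 33.6 and 34.3 FPKM in wox11, 44.4 and 57.9 FPKM in the libraries labelled jmj705, and 49.9 and 51.8 FPKM in wild type. For OSH1, OSH15 and OSH71 both wox11 libraries lay below both wild-type ones, without passing the test (adjusted p = 0.513, 0.544 and 0.195, limma), and the part of this in the wox11 results was not tested. The related gene OSH6 overlapped wild type, with 21.0 and 16.8 FPKM in wox11 and 20.8 and 21.4 FPKM in wild type. YABBY genes of young leaves were present too, with means of 10.3 to 14.2 FPKM for YAB3 and 54.2 to 65.9 FPKM for YAB5 over the genotypes. YAB1, whose place in the RefSeq table differed, had 28.0 and 35.3 FPKM in wox11 and 24.8 and 31.0 FPKM in wild type. A locus taken as a root marker, LOC_Os02g44310, was not low, but its published name RCc3 was not found in the RefSeq table and its identity is uncertain. It had 61.8 and 23.9 FPKM in wox11, 102 and 131 FPKM in the libraries labelled jmj705, and 146 and 89.7 FPKM in wild type. It did not pass the test for wox11 (adjusted p = 0.222, limma), and its part in the results was not tested. Whether fewer cells of a type or less RNA per cell lies behind a level in these bulk samples cannot be told apart.

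Few loci near shared peaks changed in either mutant. A limma fit on log2(FPKM + 1) covered all 21480 named loci that reached 1 FPKM in 2 or more libraries, and 244 of the 657 near shared peaks passed this filter. In wox11 against wild type, 1 of the 244 was higher and 0 lower at an adjusted p of 0.05, against 0.838% of all loci tested, of which 0.456% were higher and 0.382% lower. In the libraries labelled jmj705 against wild type 0 were higher and 1 lower, against 0.4% of all loci tested, of which 0.321% were higher and 0.0791% lower. As 0.410% of the 244, each count was small and near the share over all loci. At an unadjusted p of 0.05 the wox11 contrast had 11 higher loci near shared peaks (4.51%, against 4.7% of all tested) and 12 lower (4.92%, against 5.84%). The jmj705 contrast had 21 higher (8.61%, against 6.15%) and 7 lower (2.87%, against 5.85%). Median log2 changes were 0.00057 for wox11, against -0.016 over all tested loci, and -0.017 for jmj705, against -0.018 over all tested loci. The quartiles of the log2 changes near shared peaks were -0.13 and 0.16 for wox11 and -0.14 and 0.17 for jmj705.

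The single locus that fell was LOC_Os06g39040 (chr6:23181166-23184507), for which the sources used here give no product. It had 8.72 and 7.17 FPKM in the libraries labelled jmj705, against 21.2 and 18.99 FPKM in wild type, with no overlap. Its log2 change was -1.24 ± 0.15 (SE, adjusted p = 0.0239, limma). In wox11 this locus had 16.9 and 14.7 FPKM, also below both wild-type libraries, but did not pass the test (log2 change -0.33 ± 0.15, adjusted p = 0.498), and the difference between the mutants was not tested. The shared peak over its upper coordinate end had 48 tags at a fold of 11.39 in the wox11 background and 47 tags at 15.69 in the wild-type background, with summits 5 bp apart. Leaving out any 1 of the 6 libraries moved the adjusted p to between 0.0522 and 0.169, so the call rested on every library.

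The single locus that rose was LOC_Os02g43080, with 17.6 and 19.1 FPKM in wox11, against 7.93 and 7.14 FPKM in wild type (log2 change 1.18 ± 0.17 (SE), adjusted p = 0.0319, limma). The libraries labelled jmj705 had 8.51 and 6.10 FPKM, which overlapped wild type. It is 1 of 8 loci given the same coordinates, chr2:25922315-25979092, so its tie to the shared peak in that block, with 36 tags in the wox11 background and 32 in the wild-type background, is uncertain. Without 1 wox11 or 1 wild-type library the adjusted p was between 0.124 and 0.220. Among the 115 tested loci with coordinates of their own, wox11 therefore had 0 calls and jmj705 had 1 (limma). At an unadjusted p of 0.05 these loci had 5 higher (4.35%) and 10 lower (8.70%) for wox11, and 15 higher (13.04%) and 4 lower (3.48%) for jmj705, beside the shares of all tested loci given above.

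Both genes of the study's title pathway carried a shared peak themselves. WOX11 (LOC_Os07g48560, chr7:29073043-29075687) had one over its lower coordinate end, at chr7:29072995-29074003 with 73 tags and a fold of 8.95 in the wox11 background, and at chr7:29072849-29073894 with 50 tags and a fold of 8.22 in the wild-type background. The RPM ratio was 0.962 (95% interval 0.662 to 1.41). Its transcript had 1.49 and 1.11 FPKM in wox11, against 4.52 and 5.00 FPKM in wild type. The libraries labelled jmj705 had 4.57 and 7.56 FPKM. The wox11 libraries were thus below all others, with a log2 change of -1.33 ± 0.23 (SE) and an adjusted p of 0.0575. The call depended on the fit, with an adjusted p of 0.0417 when the jmj705 libraries were left out of it.

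JMJ705 (LOC_Os01g67970, chr1:39493115-39500079) also had its shared peak over the lower coordinate end. It held 98 tags at a fold of 5.16 in the wox11 background and 109 tags at 7.38 in the wild-type background, an RPM ratio of 0.592 (0.446 to 0.786). A second peak at the other end of the gene, chr1:39497312-39500009 with 159 tags, was called in the wild-type background only. Both samples over-express JMJ705, and tags from an added copy of the gene cannot be told apart from tags of the endogenous one. Its transcript had 13.7 and 12.5 FPKM in the libraries labelled jmj705, 8.39 and 8.10 FPKM in wox11, and 7.41 and 6.73 FPKM in wild type. It was thus higher, not lower, in the libraries named for its mutation (log2 change 0.81 ± 0.13 (SE), adjusted p = 0.0634). The part of the gene that the mutation affects is not stated in these sources, and every direction for jmj705 rests on the label.

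Of the other genes that act on histone methylation, JMJ703, a demethylase of lysine 4 of histone H3, had a shared peak inside the gene. It held 90 tags at a fold of 6.01 in the wox11 background and 70 tags at 6.74 in the wild-type background. Its transcript was level, with 19.1 and 18.2 FPKM in wox11, 18.4 and 16.8 FPKM in the libraries labelled jmj705, and 18.7 and 17.1 FPKM in wild type. In a list of 9 genes, most of them for lysine 27 methylation and the others for demethylases, JMJ705 and JMJ703 were the 2 near a shared peak, and 0 of the 8 tested passed in either mutant (limma). A list of 7 WOX and KNOX genes had 1 near a shared peak, WOX11. None of 7 genes of leaf polarity was near one. Of 10 floral MADS-box genes 1 was, MADS6, which acts in floral organ identity. Its peak, inside the gene, had 54 tags at a fold of 11.22 in the wox11 background and 29 tags at 7.48 in the wild-type background. Its transcript was at most 0.158 FPKM in every library, listed at 0 and 0.0608 FPKM in wox11, 0.158 and 0.0325 FPKM in both libraries labelled jmj705, and 0.0634 and 0.0927 in wild type.

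Both phototropin genes of the PHOT1 kind, blue-light receptors, carried a shared peak inside the gene near the starts of chromosomes 11 and 12. PHOT1B had 48 tags at a fold of 12.27 in the wox11 background and 57 tags at 22.78 in the wild-type background. PHOT1A had 41 tags at 9.93 in the wox11 background and 43 tags at 14.27 in the wild-type background. Their transcripts were low in all libraries, between 0.0982 and 0.279 FPKM for PHOT1B and between 0.112 and 0.271 FPKM for PHOT1A. These paralogs lie in segments that the chromosomes share, so tags and reads may be divided between them and both values are uncertain.

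Shared peaks were also found at well transcribed genes, which did not pass the test in either mutant. GAPC1, a cytosolic glyceraldehyde-3-phosphate dehydrogenase of glycolysis, was the most abundant named gene with coordinates of its own. It had 744 and 635 FPKM in wox11, 676 and 886 FPKM in the libraries labelled jmj705, and 789 and 778 FPKM in wild type. Its peak had 72 tags at a fold of 3.76 in the wox11 background and 132 tags at 7.93 in the wild-type background. The RPM ratio was 0.359 (0.266 to 0.483). The peak was 1502 bp wide in the wox11 background and 2624 bp in the wild-type background, so width enters this ratio. The summits lay 1095 bp apart, and that of the wild-type background was outside the locus.

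PETC, the Rieske iron-sulfur protein of the cytochrome b6f complex, had 29.9 and 29.3 FPKM in wox11, 33.5 and 33.5 FPKM in the libraries labelled jmj705, and 39.1 and 40.5 FPKM in wild type. The mutant libraries all lay under the wild-type ones, yet the test was not passed (log2 change -0.41 ± 0.11 for wox11, adjusted p = 0.195, and -0.24 ± 0.11 for jmj705, adjusted p = 0.428). The peak, with its summit just outside the locus, was about as strong in both backgrounds, with 53 tags at a fold of 11.33 in the wox11 background and 32 tags at 10.59 in the wild-type background (RPM ratio 1.09, interval 0.691 to 1.75).

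ARF7, an auxin response factor, had 52.3 and 55.2 FPKM in wox11, 50.9 and 52.2 FPKM in the libraries labelled jmj705, and 51.7 and 49.2 FPKM in wild type, levels that hardly varied. AHP1, which passes phosphate in cytokinin signalling, had 54.1 and 59.9 FPKM in wox11, 58.0 and 77.7 FPKM in the libraries labelled jmj705, and 55.7 and 80.5 FPKM in wild type. HEI10, a protein of meiotic crossovers, had 12.3 and 9.90 FPKM in wox11, 10.3 and 8.73 FPKM in the libraries labelled jmj705, and 10.2 and 10.6 FPKM in wild type. Neither mutant stood apart at AHP1 or HEI10. CYP734A2, an enzyme that inactivates brassinosteroids, had 4.59 and 3.59 FPKM in wox11, 5.68 and 5.61 FPKM in the libraries labelled jmj705, and 5.73 and 5.86 FPKM in wild type. Its wox11 libraries were the lowest, but the test was not passed (log2 change -0.42 ± 0.15, adjusted p = 0.388). At CYP734A2 a single peak of the wox11 background spanned 2 peaks of the wild-type background, and the peaks at ARF7, AHP1 and HEI10 were pairs of 34 to 48 tags in the wox11 background and 33 to 38 tags in the wild-type background.

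Several loci near shared peaks moved by a large factor without passing the test. LOC_Os10g14180 had 7.99 and 8.96 FPKM in the libraries labelled jmj705, 5.72 and 4.27 FPKM in wox11, and 3.42 and 3.51 FPKM in wild type. The locus shares its coordinates with other loci of the table. Both mutants lay above wild type, and for jmj705 the log2 change was 1.08 ± 0.17 (adjusted p = 0.0558). LOC_Os11g02610, which had 2 shared peaks within 1 kb, had 0.787 and 0.566 FPKM in the libraries labelled jmj705, 0.707 and 0.750 FPKM in the wox11 ones, and 2.63 and 1.81 FPKM in wild type. Both mutants lay below wild type (log2 change -0.93 ± 0.20 for jmj705, adjusted p = 0.128, and -0.89 ± 0.20 for wox11, adjusted p = 0.137). LOC_Os01g03360 had 69.7 and 96.7 FPKM in the libraries labelled jmj705, 57.3 and 28.3 FPKM in wox11, and 29.9 and 21.0 FPKM in wild type. The log2 change for jmj705 was 1.67 ± 0.33 (adjusted p = 0.112), and the wox11 libraries overlapped wild type. Its peak had 76 tags at a fold of 15.82 in the wox11 background and 28 tags at 7.04 in the wild-type background, one of the 21 pairs whose interval lay above equality (ratio 1.79, 1.15 to 2.87). LOC_Os03g59774 had 31.9 and 28.4 FPKM in wox11, 36.7 and 14.4 FPKM in the libraries labelled jmj705, and 15.4 and 16.1 FPKM in wild type. For wox11 its adjusted p was 0.451 in the fit of all genotypes and 0.0472 in the fit of wox11 and wild type alone, where the widely spread jmj705 libraries do not enter the error.

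Further loci near shared peaks were lower in mutants by smaller amounts. LOC_Os09g09370, whose peak inside the locus had 44 tags in the wox11 background and 31 in the wild-type background, had 5.19 and 5.15 FPKM in wox11, 4.31 and 4.75 FPKM in the libraries labelled jmj705, and 8.63 and 6.54 FPKM in wild type. Both mutants were below both wild-type libraries, without passing the test (adjusted p = 0.368 for wox11 and 0.200 for jmj705). LOC_Os05g11810 had 47.6 and 51.7 FPKM in wox11, 63.5 and 69.2 FPKM in the libraries labelled jmj705, and 63.04 and 78.3 FPKM in wild type. There the wox11 libraries alone were below wild type (log2 change -0.49 ± 0.14, adjusted p = 0.246), and the peak had 44 tags at a fold of 7.34 in the wox11 background against 64 tags at 21.02 in the wild-type background. LOC_Os08g30550 was 1 of the 3 loci that reached 1 FPKM in both wild-type libraries and in neither wox11 library, with 0.909 and 0.291 FPKM, against 3.68 and 2.94 FPKM in the libraries labelled jmj705 and 1.32 and 1.18 FPKM in wild type. The mutants thus lay on opposite sides of wild type, though neither passed the test (adjusted p = 0.498 for wox11 and 0.177 for jmj705) and the difference between them was not tested.

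The spread between libraries of 1 genotype was wide at some loci with large mean changes. LOC_Os02g32590 had 27.2 and 7.05 FPKM in the libraries labelled jmj705, against 1.89 and 4.92 FPKM in wild type, a log2 change of 1.86 ± 0.56 (adjusted p = 0.250). LOC_Os01g66120 had 31.7 and 13.8 FPKM in the libraries labelled jmj705, against 5.68 and 11.8 FPKM in wild type (log2 change 1.25 ± 0.43, adjusted p = 0.309). In both, the library groups did not overlap but the error was large. Among the most abundant loci the spread varied. LOC_Os01g05650, in a merged block, had 443 and 287 FPKM in wox11, 264 and 379 FPKM in the libraries labelled jmj705, and 238 and 169.7 FPKM in wild type (log2 change 0.82 ± 0.29 for wox11, adjusted p = 0.355). LOC_Os05g01270 had 318 and 349 FPKM in wox11, 282 and 328 FPKM in the libraries labelled jmj705, and 279 and 322 FPKM in wild type, and its peak had 60 tags in the wox11 background and 40 in the wild-type background, a ratio of 0.988 (0.652 to 1.51).

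**Figure D5:**
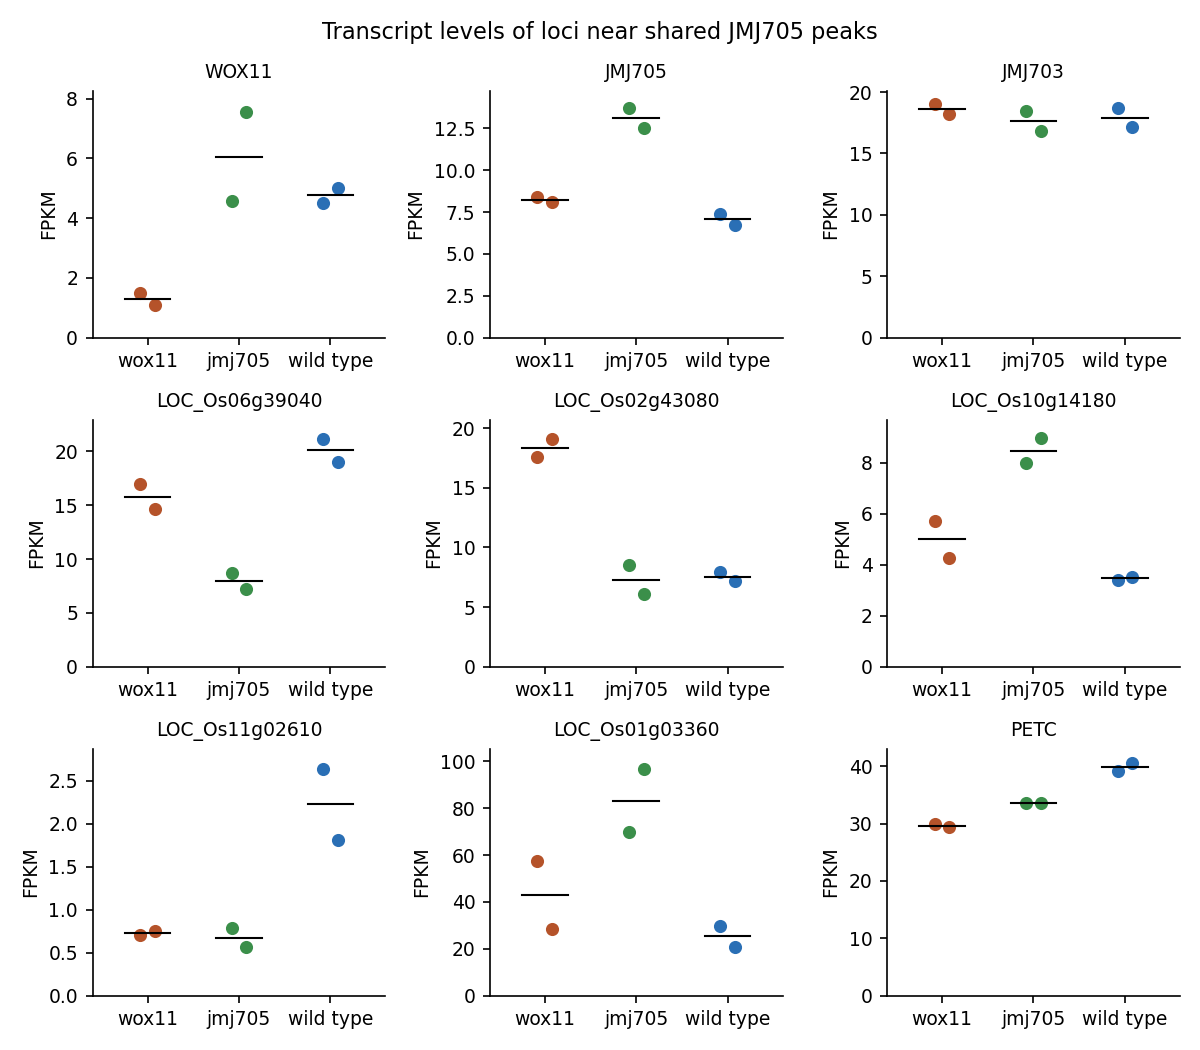
FPKM of 9 loci near shared peaks in each library (points) with the mean of the 2 libraries of a genotype (line), for wox11, the libraries labelled jmj705 and wild type, on axes that start at 0. LOC_Os06g39040 (8.72 and 7.17 FPKM labelled jmj705, 21.2 and 18.99 FPKM wild type) and LOC_Os02g43080 (17.6 and 19.1 FPKM in wox11, 7.93 and 7.14 FPKM in wild type) are the 2 loci that passed the test.

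Transcript changes in wox11 were also set beside the tag ratio of the peaks. The tested loci outside blocks were divided into 3 bins by the ratio of their peak's RPM between backgrounds. The median log2 change in wox11 was -0.015 in the lowest bin (57 loci, ratios up to 0.571), -0.018 in the middle bin (56 loci) and -0.024 in the highest bin (57 loci, ratios from 0.847). In each bin, from the lowest to the highest, loci with a higher and with a lower level were nearly balanced, 27 and 30, 24 and 32, and 28 and 29. Since some loci share a peak and the tags come from 1 library per background, this is a description with no test.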

How the data were processed

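Members and gene lists were chosen with earlier results of these data known. Per the file headers, the authors ran MACS 1.4.2 on each library by itself with its own control and a p-value cutoff of 1e-05. Tags were 122 bp long in the wox11 background and 104 bp in the wild-type background. The deposited lists give tag counts, a score (the p-value on a negative log10 scale, multiplied by a constant), a ratio (fold enrichment) and the percent false discovery rate, all the authors' values. Total tags were 7509947 in the wox11 background and 5043282 in the wild-type background. The labels name 1 input sample, and both lists had a control of a different size, per the file headers. Bowtie2 2.1.0, SAMtools 0.1.17 and Trimmomatic 0.32 are named for ChIP-seq and Trimmomatic, TopHat and Cufflinks for RNA-seq in the submitters' processing notes. The expression tables hold FPKM of 57567 loci as deposited by the authors, and total depth is unknown. Neither a genome build nor an annotation is stated in the sources used here, so coordinates are those of the files, 1-based.

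Lists were intersected and peaks tied to named loci within 1 kb of the peak edge in Python 3.11.15 with pandas 2.3.3 and scipy 1.17.1. Exact 95% intervals of tag ratios come from the binomial share of the pair's tags and cover counting error only. Loci with every estimate valid (55706 named) and at least 1 FPKM in at least 2 of 6 libraries were tested on log2(FPKM + 1), a scale that understates changes of low genes, with limma 3.58.1 in R 4.3.3 (1 mean per genotype, mean-variance trend, Benjamini-Hochberg adjustment over 21480 loci). The test was also run on simulated independent normal values with a smoothed spread, and its outcome there is not reported here. The p-values measure the spread between 2 libraries per genotype. Correlations of log2 values between libraries were 0.962 to 0.987. Loci named are those that passed the test, the most abundant, those at the 12 peaks with the most tags, those with the largest changes, and published genes near shared peaks. From these the text describes a selection. Gene symbols came from published locus names. Of the 15 near shared peaks 14 lay at a like place in the RefSeq table of another build (ASM3414082v1), and the other is not named here. No genome sequence was used here.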

Additional observations from a re-analysis of the deposited data

How the results depend on the processing

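The number of shared peaks was 427 with an overlap of at least 50% of the shorter peak, 354 with summits within 200 bp and 318 with a fold enrichment of at least 5 in both lists. With a false discovery rate of at most 5% in both lists it was 0, since the lowest rate in the wox11 background was 5.59%. In the wild-type background 1532 of the 1551 peaks met that limit. The setting therefore left no loci to count. Loci within 5 kb numbered 1191, and those with coordinates of their own, a setting chosen after seeing the data like the removal of the chromosome 11 stretch and chromosome starts, 318. The wild-type median of 0.0559 FPKM became 7.55 over tested loci, 0.0882 over overlapping loci, 0.0307 over loci with own coordinates, and 0.0499 to 0.05003 without 1 wild-type library. The share at or above 1 FPKM, 34.9%, became 47.9% at 0.1 FPKM and 22.2% at 5 FPKM.

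For wox11, calls over all loci were 180, and 34 with no filter; near shared peaks they were 1, and 2 at a pseudocount of 0.1 FPKM, 0 with no filter, 3 in the fit of 2 genotypes, 2 within 5 kb and 0 with own coordinates. Leaving out 1 library gave 35 to 84 calls over all loci when it was a wox11 or wild-type one and 132 when it was a jmj705 one, and 0 to 3 near shared peaks. The median log2 change near shared peaks was -0.018 with at least 5 FPKM, 0.025 after quantile normalization, -0.010 with own coordinates and 0.00057 to 0.039 without 1 library. For jmj705, calls near shared peaks were 0 in the fit of 2 genotypes. Leaving out 1 library gave 20 to 66 calls over all loci, against 86, and 0 near shared peaks. The cause of these moves was not tested. Tests without a filter include loci near 0, and a genotype with 1 library is assumed to vary like the others.

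Replicate numbers are shared between genotypes. Same-numbered libraries deviated together (r = 0.292 for wox11 and wild type, 0.118 for jmj705 and wild type and 0.114 for jmj705 and wox11 over 21480 loci), but the labels do not say that a number marks a batch. With the replicate block 230 loci passed for wox11 and 89 for jmj705, and 1 near shared peaks in each.

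Of the values for single loci, 1128 kept their side of the threshold, 13 lost the call (LOC_Os02g43080 and LOC_Os06g39040) and 7 gained one (WOX11 and LOC_Os03g59774). Precision is limited by 2 libraries per genotype and 1 per ChIP background.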
